A study of Homo sapiens with 6 samples.

Results

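In libraries labelled as KRT17 knockout cells of the gastric carcinoma line NCI-N87, 28 protein-coding genes gave no read at all, although each stood at 5 FPKM or more in both libraries of WT cells. The 28 were chosen by their measured levels: they are the autosomal protein-coding genes of GENCODE release 29 with 5 FPKM or more in both WT libraries and exactly 0 FPKM in all 4 knockout libraries. FPKM is the number of sequenced fragments scaled by the length of the exons and by the depth of the library. Of 58735 gene IDs in the files, 19019 were autosomal protein-coding genes and 6788 of these reached 5 FPKM in both WT libraries. Both limits were met by 38 genes (0.56% of the 6788). By name, 10 of them were set aside (A2ML1, DSG3, IVL, TNFRSF19 and genes of the KRT, KLK and SPRR families), which left the 28 genes (0.412%). Because the WT and knockout levels chose these genes, their difference between WT and knockout libraries is described here and not tested.

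Total RNA was sequenced from 3 groups of 2 libraries each, all labelled as the line NCI-N87, an established line from human gastric cancer. The groups were KO1 and KO2, both with KRT17 knocked out, and WT, the wild type line. The labels do not say whether KO1 and KO2 are clones, pools or guides, name no treatment, and do not say whether replicates were separate cultures. Each p-value given later thus rests on library-to-library spread, which may be only technical. KO1 and KO2 were set against the same 2 WT libraries.

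The 28 genes do not form a known pathway. They include a regulator of splicing, developmental transcription factors, a growth factor and a growth factor receptor, potassium channel subunits, enzymes of membrane lipids and proteins of the cell surface. Several belong to small families of related genes whose proteins share a task, so that a cell may use one member while another is off. In gastric and other glandular epithelia, the splicing factor ESRP1 is a well known mark of the epithelial state, whereas troponin I, the cardiac factor NKX2-5 and the neurotrophin receptor NTRK2 are best known from muscle, heart and nerve.

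The recovered depth was 22673871 and 21880796 reads in KO1, 18627054 and 17599759 in KO2, and 22852340 and 19618509 in WT. KRT17 stood at 2.29 and 2.40 FPKM in KO1 and at 11.3 and 10.4 in KO2, against 739 and 753 in WT. Of 16046 genes tested with limma, 40.1% were lower and 40.5% higher in the knockout average than in WT, so 80.6% were called. ERBB2, whose amplification NCI-N87 is known for, was at 5.57, 6.07, 5.27 and 5.30 FPKM in the knockout libraries, against 1355 and 1420 in WT. GSTM1, a gene whose full deletion is common in human genomes, was at 22.4, 21.9, 23.7 and 24.4 FPKM in the knockout libraries and had 0 reads in both WT libraries. These values go against the labels' single line for all 6 libraries, and whether the knockout libraries come from the same line as WT was not tested. Of 10 markers of gastric epithelial carcinoma lines, 9 were lower and MUC1 was higher in knockouts, with summed levels of 502 to 577 FPKM in knockouts and 5303 to 5480 in WT. Of 9 fibroblast and mesenchymal markers, 6 were tested and all 6 were higher, with sums of 675 to 876 FPKM in knockouts and 122 to 124 in WT, while PDGFRA was at 0 and SPARC and THY1 under 0.1 FPKM in every library. Sums over 7 leukocyte markers were 1.16 to 2.19 FPKM in knockouts and 1.48 to 1.54 in WT, and those over 5 endothelial markers were 0.668 to 0.746 FPKM in knockouts and 0.377 to 0.443 in WT. The 1 leukocyte marker that reached the filter was higher in knockouts (log2 difference 1.18), and 0 endothelial markers reached it. PTPRC, CD3E, PECAM1 and KDR, which define these cell types, were under 0.1 FPKM in every library. The part of these differences in the results below was not tested. An effect of the KRT17 knockout cannot be told apart from any other difference between the cells labelled knockout and those labelled WT.

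All 28 genes had 0 reads in each of the 4 knockout libraries, so that the groups did not overlap for any of them, which is what the choice of genes fixes. WT levels ranged from 5.80 to 55.5 FPKM in replicate 1 and from 5.70 to 52.8 FPKM in replicate 2, with medians of 9.68 and 9.55. The replicates of WT were close, since the higher value was at most 1.18 times the lower one. Between 188 and 10566 reads stood behind a gene in WT, both libraries together, with a median of 1548. A count of 0 allows up to 3 reads per library, and this limit was 0.0545% to 3.07% of the WT mean. Computed against that limit, the genes were at least 32.6-fold to at least 1835-fold lower in knockouts than in WT. In total RNA of a culture, fewer cells that express a gene and less RNA per cell cannot be told apart.

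**Figure D1:**
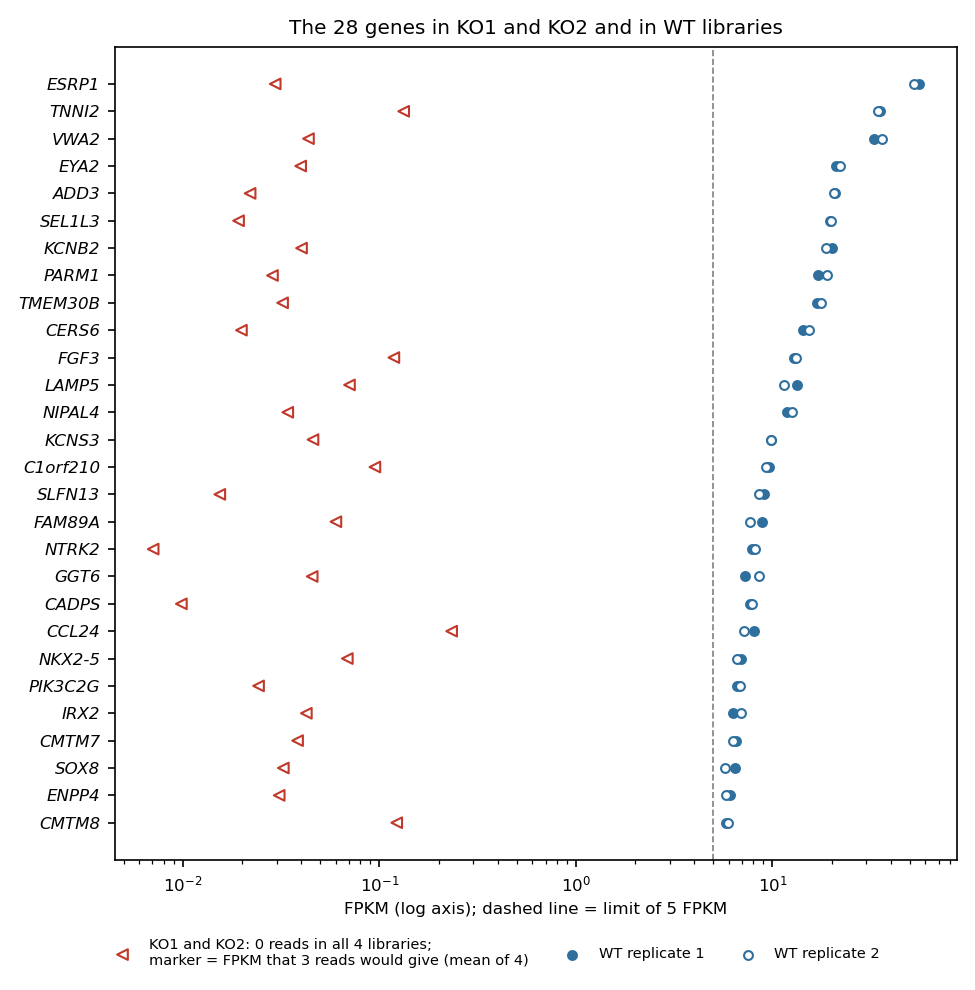
FPKM on a log axis of the 28 genes, ordered by their WT mean. Open triangles mark the FPKM that 3 reads would give in a knockout library (mean of 4, where all counts were 0), filled and open circles the 2 WT libraries, and the dashed line the limit of 5 FPKM; the WT values run from 5.70 to 55.5 FPKM.

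The promoters of the silent genes ranged from poor to rich in CG pairs. The RefSeq table of promoters held 19 of the 28 genes (GRCh38.p14, 250 bases before to 50 after a start), which is 67.9% and under the 80% needed to compare the genes with others. The ratio of observed to expected CG pairs, which is high in CpG islands, ran from 0.165 in CCL24 to 0.993 in FAM89A, and over 14610 promoters of autosomal protein-coding genes it ran from 0 to 1.41 with a median of 0.772. Over the 5583 of these whose gene was at 5 FPKM or more in both WT libraries the median was 0.867. The 5 stretches below are the 150 bases before the RefSeq start. In the first 4, CG pairs are in capitals and number 15 in IRX2, 20 in CMTM8, 20 in FAM89A and 3 in CCL24. IRX2 is shown because its stretch lies between a pair of genes that were both silent, CMTM8 because it is one of 2 adjacent silent genes, and FAM89A and CCL24 as the extremes of the ratio. In VWA2, which had the third highest WT mean, the letters TATAAA are in capitals.
IRX2, chr5:2751678-2751827, minus strand: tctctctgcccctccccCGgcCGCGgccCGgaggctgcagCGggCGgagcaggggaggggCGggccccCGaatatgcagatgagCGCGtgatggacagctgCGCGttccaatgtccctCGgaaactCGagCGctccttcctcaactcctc
CMTM8, chr3:32238530-32238679, plus strand: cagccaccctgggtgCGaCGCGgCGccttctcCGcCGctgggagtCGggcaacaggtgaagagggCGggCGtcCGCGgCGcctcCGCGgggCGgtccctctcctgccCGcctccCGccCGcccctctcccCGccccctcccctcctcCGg
FAM89A, chr1:231040255-231040404, minus strand: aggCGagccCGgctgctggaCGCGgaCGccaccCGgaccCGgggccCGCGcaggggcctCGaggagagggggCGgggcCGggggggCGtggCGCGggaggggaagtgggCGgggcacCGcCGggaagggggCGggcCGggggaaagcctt
CCL24, chr7:75823373-75823522, minus strand: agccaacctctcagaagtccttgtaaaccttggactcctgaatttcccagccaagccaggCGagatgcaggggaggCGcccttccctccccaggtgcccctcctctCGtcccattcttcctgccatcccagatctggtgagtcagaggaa
VWA2, chr10:114239104-114239253, plus strand: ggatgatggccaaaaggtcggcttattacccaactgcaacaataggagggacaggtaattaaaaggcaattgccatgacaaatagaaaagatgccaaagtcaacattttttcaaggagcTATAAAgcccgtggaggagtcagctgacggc
TATAAA, searched on both strands, occurred in the 300 bases of 2 of the 19 genes, VWA2 and ADD3, in 9.69% of the 14610 promoters and in 5.02% of the 5583. Which start the cells used was not measured.

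Of the 28 genes, 5 encode regulators of splicing or transcription. ESRP1, an RNA-binding protein that sets epithelial splicing patterns, was the highest of all (chr8:94641074-94707466, plus strand, ENSG00000104413). It had 0 FPKM in the 4 knockout libraries, against 55.5 and 52.8 FPKM in WT (54.1 ± 1.90, SD, n = 2), which rest on 10566 reads and make it at least 1835-fold lower in knockouts. No other of the 28 genes had so low a limit relative to its WT level. EYA2, a phosphatase and coactivator of the sine oculis homeobox factors, was at 0 in knockouts and at 21.0 and 22.0 FPKM in WT (chr20:46894624-47188844), at least 542-fold lower. The homeobox factor NKX2-5, known for its role in heart development, had 0 FPKM in knockouts, against 6.88 and 6.63 FPKM in WT. IRX2, an Iroquois homeobox factor of early patterning, was silent in knockouts and at 6.27 and 6.89 FPKM in WT. SOX8, an HMG-box factor of the SOXE group with SOX9 and SOX10, was silent in knockouts and at 6.47 and 5.70 FPKM in WT. NKX2-5, IRX2 and SOX8 were at least 98.3-fold, at least 155-fold and at least 188-fold lower in knockouts, in that order. The 4 transcriptional regulators thus lay at 5.70 to 22.0 FPKM in WT, under ESRP1.

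The signalling genes were a growth factor, a receptor tyrosine kinase and a chemokine. FGF3, a secreted fibroblast growth factor, had 0 FPKM in knockouts, against 12.9 and 13.2 FPKM in WT (chr11:69809969-69819024, minus strand), and was at least 110-fold lower. NTRK2 encodes TrkB, the receptor tyrosine kinase for the neurotrophin BDNF. It was at 0 in knockouts and at 7.88 and 8.16 FPKM in WT (chr9:84668551-85027070). Its exons are the longest of the 28 genes, at 20363 bases, and 6517 WT reads put it at least 1136-fold lower in knockouts. CCL24, a chemokine also called eotaxin-2 that draws eosinophils through CCR3, had 0 FPKM in knockouts, against 8.03 and 7.15 FPKM in WT. With 617 bases of exon and 188 WT reads it had the weakest limit, at least 32.6-fold lower.

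Both potassium channel genes of the set belong to one kind of channel. KCNB2 forms the pore of the Kv2 delayed rectifier, and KCNS3 is a subunit that makes no channel by itself and modifies Kv2 channels. KCNB2 was at 0 FPKM in knockouts and at 20.1 and 18.8 FPKM in WT, at least 484-fold lower. KCNS3 was at 0 FPKM in knockouts and at 9.78 and 9.81 FPKM in WT, at least 213-fold lower.

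Genes of the cytoskeleton and of secretion were ADD3, TNNI2 and CADPS. ADD3 encodes gamma-adducin, which caps actin filaments and joins them to spectrin under the membrane. It had 0 FPKM in knockouts, against 20.7 FPKM in each WT library, by their ratio the closest pair of WT values of the 28 genes (chr10:109996368-110135565), and was at least 942-fold lower. TNNI2, the inhibitory troponin subunit of fast skeletal muscle, was at 0 FPKM in knockouts and at 35.2 and 34.5 FPKM in WT, at least 262-fold lower. CADPS primes dense-core vesicles for release and was at 0 FPKM in knockouts, against 7.67 and 7.88 FPKM in WT, at least 791-fold lower.

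Enzymes and their subunits made up 6 of the genes. CERS6, a ceramide synthase, was at 0 FPKM in knockouts and at 14.3 and 15.4 FPKM in WT. TMEM30B, an accessory subunit of the P4-type flippases that move lipids between membrane leaflets, was at 0 in knockouts and at 16.9 and 17.7 FPKM in WT. PIK3C2G, a class II phosphoinositide kinase, was at 0 in knockouts and at 6.605 and 6.83 FPKM in WT. These 3 genes act on membrane lipids, and their limits were at least 746-fold, at least 539-fold and at least 277-fold lower, in that order. GGT6, of the gamma-glutamyltransferase family, was at 0 FPKM in knockouts and at 7.25 and 8.54 FPKM in WT, by their ratio the widest pair of WT values among the 28 genes. ENPP4, a surface enzyme that splits dinucleotides, was at 0 in knockouts and at 6.08 and 5.79 FPKM in WT. SLFN13, an endoribonuclease that cuts transfer RNA, was at 0 in knockouts and at 9.07 and 8.56 FPKM in WT. GGT6, ENPP4 and SLFN13 were at least 174-fold, at least 192-fold and at least 572-fold lower, in that order. Schlafen genes resemble each other and the counting of reads with several matches is not stated in the sources, so the level of SLFN13 is uncertain.

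Proteins of membranes and matrix formed the rest. VWA2, a secreted matrix protein with von Willebrand A domains, was at 0 FPKM in knockouts, against 32.9 and 36.3 FPKM in WT (chr10:114239330-114291513), at least 794-fold lower. PARM1, a mucin-like membrane protein, was at 0 in knockouts and at 17.0 and 18.8 FPKM in WT. NIPAL4, a membrane protein mutated in congenital ichthyosis, was at 0 in knockouts and at 11.8 and 12.6 FPKM in WT. LAMP5, a relative of the lysosomal LAMP proteins known from neurons, was at 0 in knockouts and at 13.3 and 11.4 FPKM in WT. Among these 3, PARM1 was at least 627-fold, NIPAL4 at least 357-fold and LAMP5 at least 176-fold lower in knockouts. SEL1L3, little characterised, was at 0 in knockouts and at 19.5 and 19.7 FPKM in WT, and with 5875 WT reads was at least 1023-fold lower. C1orf210 and FAM89A, likewise little characterised, were at 0 in knockouts and at 9.59 and 9.30 FPKM and at 8.80 and 7.64 FPKM in WT, at least 99.6-fold and at least 137-fold lower.

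CMTM7 and CMTM8, which encode membrane proteins with a MARVEL domain, were the only pair of the 28 genes with no other protein-coding gene between them. They lie 21.3 kb apart on chromosome 3 (CMTM8, chr3:32238679-32370325; CMTM7, chr3:32391671-32483067, both plus strand). CMTM8 was at 0 FPKM in knockouts and at 5.80 and 5.94 FPKM in WT. CMTM7 was at 0 FPKM in knockouts and at 6.54 and 6.28 FPKM in WT. The limits were at least 47.9-fold lower for CMTM8, which had 275 WT reads, and at least 167-fold lower for CMTM7. All other pairs on one chromosome were at least 4.10 Mb apart, the nearest being ADD3 and VWA2. The 28 genes were spread over 16 autosomes, with 3 genes each on chromosomes 3 and 5 as the most.

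The limits of 5 and 0 FPKM cut through a continuous range of levels. The lowest genes inside the WT limit were SOX8, ENPP4, CMTM8, IRX2 and CMTM7. Just outside it, with 0 reads in all knockout libraries, were CRACR2A at 4.70 and 5.41 FPKM in WT, RRAGD at 4.36 and 4.82, BARX2 at 4.53 and 4.25, POPDC3 at 4.04 and 4.37 and HLA-DRA at 4.09 and 3.998. Just outside the other limit, with 1 read in the 4 knockout libraries together, the highest were CBLC at 34.4 and 35.0 FPKM in WT, SYT8 at 29.7 and 30.2, SYK at 28.95 and 28.7, CDX2 at 24.2 and 25.7 and BSPRY at 17.0 and 16.5. The read stood in a KO1 library for 4 of these genes and in a KO2 library for CDX2, the intestinal homeobox factor. Of the 6788 genes at 5 FPKM or more in WT, 38 had 0 knockout reads, 21 had 1, 25 had 2 or 3, 42 had 4 to 10, 75 had 11 to 100, and 6587 (97.0%) had more. Very low knockout counts were therefore not limited to the 28 genes. The 21 single reads fell 13 times in KO1 and 8 times in KO2.

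**Figure D2:**
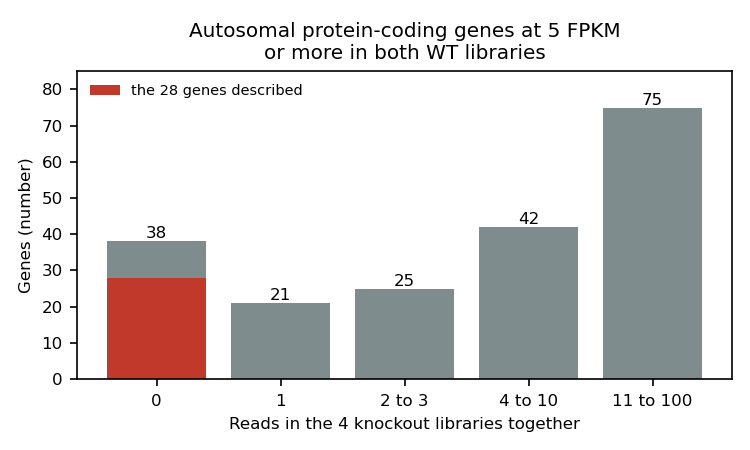
Number of autosomal protein-coding genes at 5 FPKM or more in both WT libraries, by the reads they had in the 4 knockout libraries together. The bar at 0 reads holds 38 genes, of which the red part is the 28 genes described, and the bar at 1 read holds 21; the 6587 genes with more than 100 reads are not drawn.

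As genes, the 28 had a median exon length of 3684.5 bases, 6 exon blocks and a span of 36736.5 bp. Over the 6788 genes on in WT the medians were 4777 bases, 11 blocks and 28857 bp. Over all 19019 autosomal protein-coding genes they were 4278 bases, 9 blocks and 27577 bp. The median WT level of the 28 genes was 9.62 FPKM, under the 13.9 FPKM of the genes on in WT. For all 38 genes with 0 knockout reads, before names were set aside, it was 12.7 FPKM. WT level was part of the rule, and exactly 0 reads is easier to meet with short exons. These medians thus partly follow from the choice of genes.

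Another annotated gene of any type lay over or within 5 kb of 23 of the 28 genes. Of these other genes, 42 were of types other than protein-coding, and 40 of the 42 had 0 knockout reads. Most were hardly read in WT either. Of the 14 with 10 or more WT reads, 13 had 0 knockout reads, and the other was a processed pseudogene within FAM89A with 37 knockout and 18 WT reads. The share with 0 knockout reads over all genes of such types was not computed. Whether these counts are more than usual for such genes was therefore not tested. CEROX1, a long noncoding RNA that starts near SOX8 on the other strand, had 0 FPKM in knockouts, against 3.57 and 3.74 FPKM in WT (569 reads). LINC02894, antisense near ESRP1, had 0 FPKM in knockouts, against 3.35 and 2.54 FPKM in WT (260 reads). No source states whether the counting used strand, so reads of a gene and of its antisense partner cannot be told apart.

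The nearest protein-coding genes on either side show whether the silence extended beyond the 28 genes. There were 54 such neighbours, and 35 reached 1 FPKM in 2 or more libraries and were tested by limma on log2(FPKM + 1) with p adjusted over all 16046 genes. Of the 35, 25 were lower, 9 were higher and 1 was not called, so 97.1% were called, beside 80.6% of all genes tested. Their median log2 difference was -1.13, against 0.02 over all genes tested. A neighbour that passed only through WT had to be lower, however, and 13 of the 35 were under 1 FPKM in every knockout library. Among the 19 with a mean of 1 FPKM or more both in knockouts and in WT, 12 were lower, 6 higher and 1 not called. Of all 11647 genes with such means, 4925 were lower, 4360 higher and 2362 not called. Of the 19 neighbours that were not tested, 13 had 0 knockout reads (68.4%), beside 61.2% of all 42689 genes not tested.

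In some places the next gene was silent or nearly so. SYT8, a synaptotagmin gene that ends 1468 bp before TNNI2, had 1 read in the knockouts, at 0.00911 FPKM in KO1 replicate 1, against 29.7 and 30.2 FPKM in WT (log2 difference -4.95 ± 0.05, limma adjusted p = 1.75e-07). TMEM125, a membrane protein gene next to C1orf210, had 3 knockout reads and stood at 14.4 and 15.5 FPKM in WT (-3.97 ± 0.06, limma adjusted p = 5.34e-07). IRX2-DT starts 469 bp from IRX2 on the other strand, and the IRX2 stretch printed above lies between their starts. It had 0 reads in knockouts, against 3.70 and 3.68 FPKM in WT (-2.23 ± 0.06, limma adjusted p = 3.37e-06). SLC2A10, a glucose transporter gene next to EYA2, and ENPP5, the family partner next to ENPP4, also had 0 knockout reads, with 2.57 and 2.59 FPKM and 1.43 and 1.62 FPKM in WT. SLFN12, next to SLFN13, had 6 knockout reads and stood at 3.84 and 4.74 FPKM in WT. All neighbours named so far, from SYT8 to SLFN12, passed the filter only through WT. A call of lower was thus their only possible direction, and their p-values are no separate evidence of it.

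Elsewhere the next gene stayed on. ESRP1 lies between VIRMA, a subunit of the RNA methylation complex, and DPY19L4. VIRMA was at 5.14, 5.13, 5.30 and 5.80 FPKM in knockouts, against 12.06 and 12.05 FPKM in WT (-1.04 ± 0.04, limma adjusted p = 1.05e-05). DPY19L4 was at 4.82, 4.43, 3.89 and 4.86 FPKM in knockouts, against 11.01 and 11.12 FPKM in WT (-1.14 ± 0.08). Both were lower in knockouts and neither was silent. ADD3 lies between XPNPEP1 (-0.10 ± 0.04, limma adjusted p = 0.0664, not called, but called without WT replicate 1 and by limma voom) and MXI1, which was higher in knockouts (0.44 ± 0.05, limma adjusted p = 0.000697). CMTM6, which stabilises the immune checkpoint ligand PD-L1 and overlaps the end of CMTM7 on the other strand, was at 9.46, 8.93, 5.80 and 6.74 FPKM in knockouts, against 22.3 and 22.2 FPKM in WT (-1.43 ± 0.06, limma adjusted p = 1.19e-05). GPD1L, on the other side of the CMTM pair, was higher in knockouts (0.62 ± 0.07, limma adjusted p = 0.000617).

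STC2, which encodes the secreted glycoprotein stanniocalcin 2, went the opposite way to its neighbour NKX2-5. It stood at 37.8 and 37.0 FPKM in KO1 and at 13.9 and 13.7 in KO2, against 0 and 0.00888 FPKM in WT (4.57 ± 0.03, limma adjusted p = 9.46e-08). SSTR5, a somatostatin receptor gene beyond SOX8, was at 1.73, 1.55, 1.84 and 1.27 FPKM in knockouts and had 0 reads in WT (1.37 ± 0.11, limma adjusted p = 0.000142). FGF4, next to FGF3, had 0 reads in all 6 libraries, and ANO1 on its other side was lower in knockouts (-1.85 ± 0.07, limma adjusted p = 6.74e-06). CCL26, the gene of another eotaxin next to CCL24, was higher in knockouts (0.82 ± 0.10, limma adjusted p = 0.000893), although at 1.73 FPKM or less in every library. STC2, SSTR5 and CCL26 passed the filter only through knockout libraries, which favoured a call of higher in advance. ANO1 passed it only through WT and could only be lower.

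**Figure D3:**
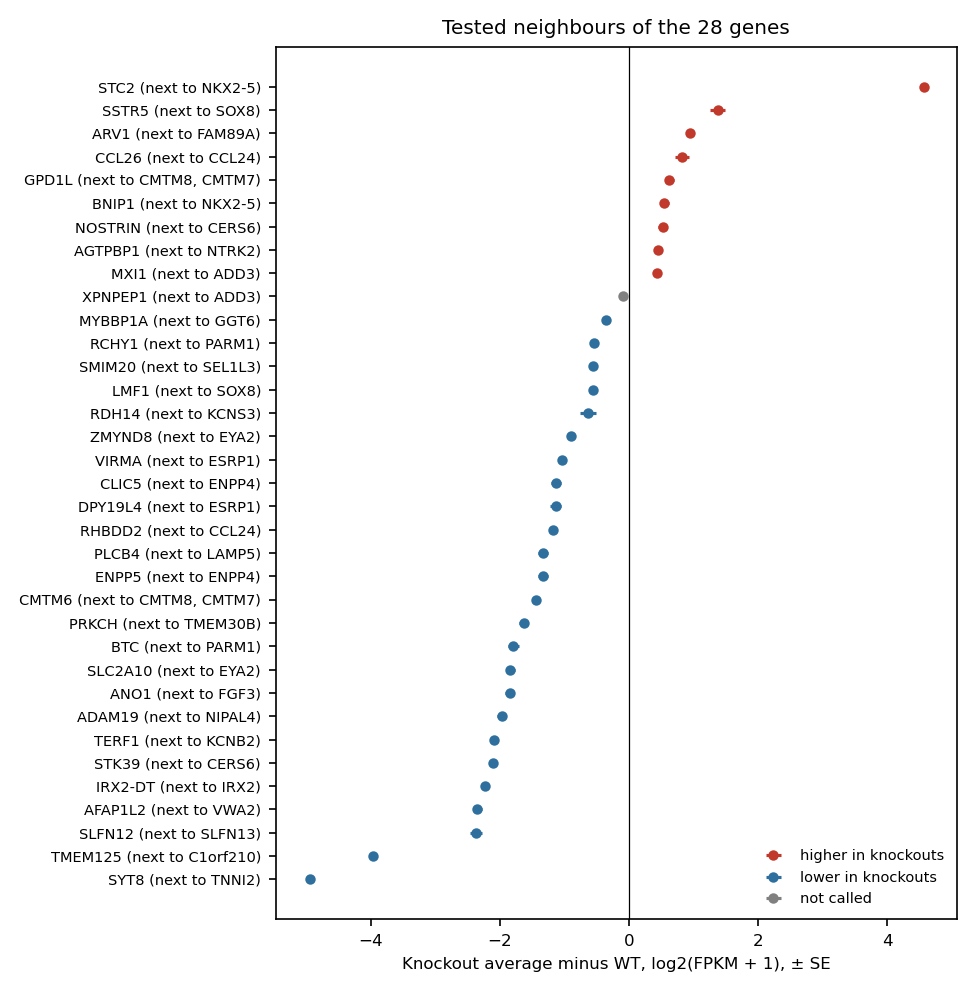
Knockout average minus WT on the log2(FPKM + 1) scale, with the SE as bars, for the 35 tested neighbours of the 28 genes. Red points are the 9 higher, blue points the 25 lower and the grey point the 1 not called gene; values run from -4.95 (SYT8) to 4.57 (STC2).

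Related genes of the same families differed in both directions. Partners were taken by the stem of the symbol, for instance CERS1 to CERS5 for CERS6. Of 132 partners, 50 were tested, and 23 were higher, 23 lower and 4 not called (92.0% called, beside 80.6% of all genes tested), with a median log2 difference of -0.02. Among the 28 partners with means of 1 FPKM or more in both knockouts and WT, 13 were higher, 11 lower and 4 not called. A total of 12 tested partners were under 1 FPKM in every knockout library. Of the 82 partners that were not tested, 43 had 0 knockout reads (52.4%), likewise beside 61.2%.

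In several families a partner was higher in the knockouts. PIK3C2B, a class II kinase like PIK3C2G, was at 35.9, 36.1, 46.3 and 44.97 FPKM in knockouts, against 9.66 and 9.38 FPKM in WT (1.98 ± 0.03, limma adjusted p = 3.12e-07). PIK3C2A, the third class II kinase, was at 9.74, 9.63, 8.98 and 9.44 FPKM in knockouts, against 4.87 and 4.26 FPKM in WT (0.91 ± 0.06). So both other class II kinases were higher where PIK3C2G was silent. IRX3 was at 22.5, 21.6, 21.2 and 20.9 FPKM in knockouts, against 0.414 and 0.524 FPKM in WT (3.94 ± 0.04, limma adjusted p = 2.26e-07). IRX5, which neighbours IRX3 in the other Iroquois cluster, was at 6.09, 7.22, 5.65 and 5.89 FPKM in knockouts, against 0.716 and 0.919 FPKM in WT (1.99 ± 0.08). IRX3 and IRX5 passed the filter only through knockout libraries, which favoured a call of higher in advance. GGT1, the main gamma-glutamyltransferase, was at 13.8, 13.2, 13.5 and 12.6 FPKM in knockouts, against 1.40 and 1.66 FPKM in WT (2.50 ± 0.06). GGT1 has near-identical copies, so its level is uncertain.

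Among tested partners, differences were smaller in the ceramide synthase and adducin families. CERS2, the synthase of very long chain ceramides, was at 26.8, 26.5, 35.3 and 36.4 FPKM in knockouts, against 22.4 and 22.8 FPKM in WT (0.44 ± 0.02, limma adjusted p = 3.47e-05). CERS5 was at 5.59, 5.83, 5.38 and 5.84 FPKM in knockouts, against 4.08 and 3.94 FPKM in WT (0.41 ± 0.05). CERS4 was not called (0.03 ± 0.10, limma adjusted p = 0.830). CERS1 was under the filter and not tested. It stood at 0.457, 0.375, 0.449 and 0.488 FPKM in knockouts (139 reads), against 0.0123 and 0.0290 FPKM in WT (3 reads). ADD1, alpha-adducin, was at 8.28, 8.15, 8.82 and 9.01 FPKM in knockouts, against 7.41 and 7.61 FPKM in WT (0.17 ± 0.03, limma adjusted p = 0.00428). ADD2, beta-adducin, had 1 read in the knockouts and 1 in WT.

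In other families partners were lower as well, while the FGF partners were split. TMEM30A, the widely used flippase subunit, was at 17.5, 17.0, 17.6 and 17.2 FPKM in knockouts, against 50.2 and 48.7 FPKM in WT (-1.46 ± 0.03, limma adjusted p = 9.63e-07). ESRP2, which acts on many of the same exons as ESRP1, was at 11.3, 11.2, 10.2 and 10.3 FPKM in knockouts, against 17.7 and 19.2 FPKM in WT (-0.73 ± 0.04, limma adjusted p = 3.01e-05). NIPAL2 was at 0.398, 0.416, 0.474 and 0.654 FPKM in knockouts, against 9.04 and 9.80 FPKM in WT (-2.81 ± 0.07). The milder NIPAL3, also lower, differed by -0.29 ± 0.05 (limma adjusted p = 0.00406). CADPS2, the second CADPS gene, had 0 reads in knockouts and stood at 2.11 and 1.95 FPKM in WT. FGF20 had 2 knockout reads and stood at 18.5 and 19.2 FPKM in WT, and FGF19 was at 0.0350, 0.0180, 0.167 and 0.154 FPKM in knockouts, against 5.02 and 4.74 FPKM in WT. FGF2, another growth factor of that family, was higher in knockouts (2.42 ± 0.04, limma adjusted p = 4.43e-07). FGF22 was higher too (1.15 ± 0.09, limma adjusted p = 0.00011), but passed the filter only through knockout libraries, which favoured that call. NIPAL2, CADPS2, FGF20 and FGF19 passed the filter only through WT and could only be lower.

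The SOX, CMTM and schlafen families were split. SOX9, of the same group as SOX8, was at 4.51, 5.58, 4.55 and 5.45 FPKM in knockouts, against 33.7 and 32.3 FPKM in WT (-2.50 ± 0.10, limma adjusted p = 8.75e-06). SOX2, SOX4 and SOX15 were lower too, while SOX12, SOX13 and SOX18 were higher. SOX18, a factor of vessel development, was at 6.03, 5.66, 5.42 and 6.07 FPKM in knockouts, against 0.472 and 0.438 FPKM in WT (2.22 ± 0.06, limma adjusted p = 2.77e-06). CMTM4 was lower in knockouts, at 6.48, 6.19, 6.43 and 6.36 FPKM against 23.01 and 22.78 FPKM in WT (-1.70 ± 0.03, limma adjusted p = 8.26e-07), as was CMTM6. CMTM1 (0.81 ± 0.09) and CMTM3 (0.80 ± 0.10) were higher, with limma adjusted p of 0.000516 and 0.0007. SLFN11, known for its link to the response to DNA damage, had 0 reads in knockouts, against 1.86 and 1.87 FPKM in WT. SLFN5 was higher, at 5.97, 6.05, 3.76 and 3.95 FPKM in knockouts, against 2.75 and 2.77 FPKM in WT (0.63 ± 0.04, limma adjusted p = 5.61e-05). SOX18 and CMTM3 passed the filter only through knockout libraries, which favoured a call of higher in advance. SOX2, SOX15 and SLFN11 passed it only through WT and could only be lower, so the split rests partly on the filter.

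**Figure D4:**
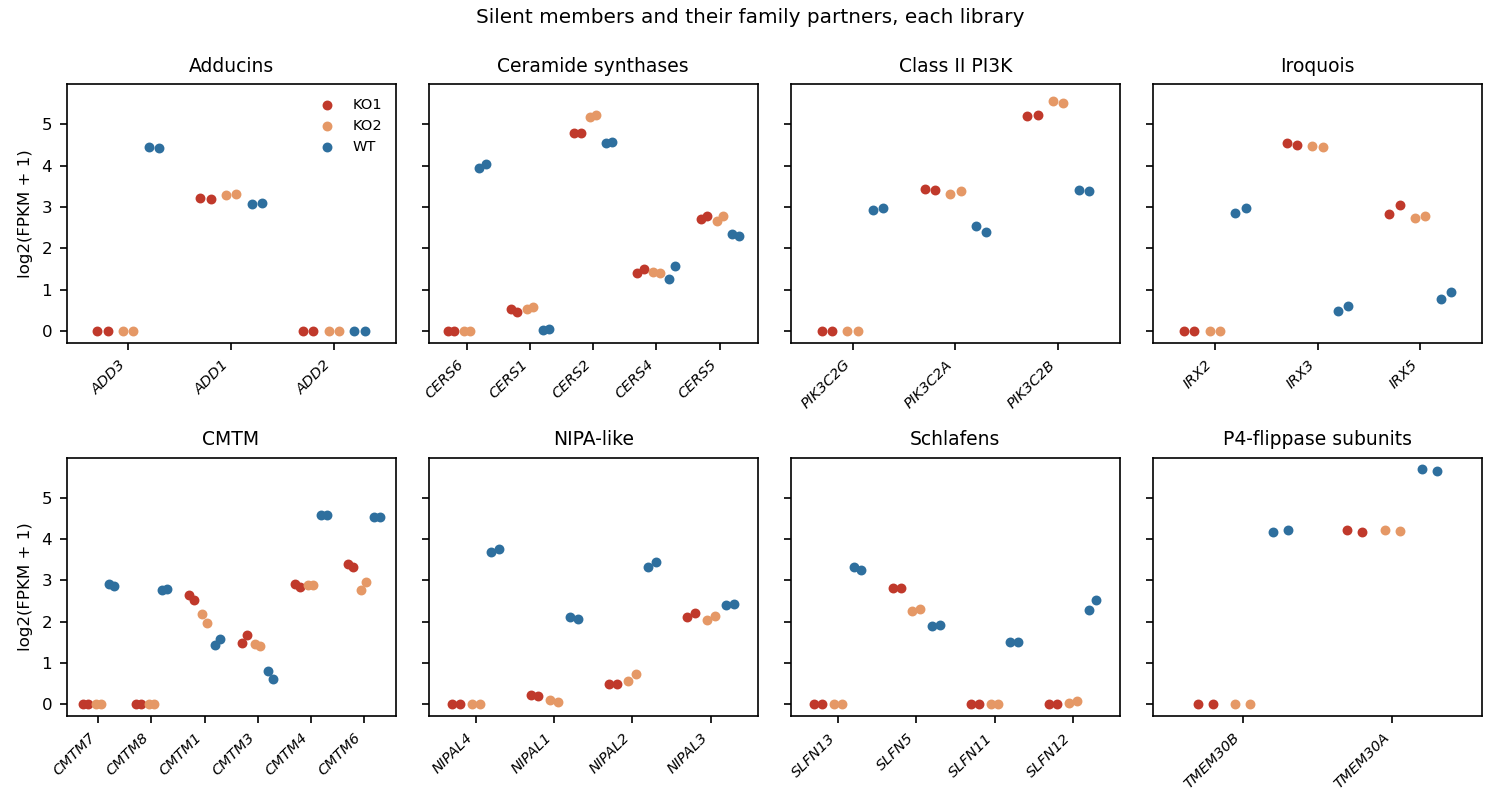
log2(FPKM + 1) in each library (KO1 red, KO2 orange, WT blue) for silent genes, drawn first in each panel, and their family partners. PIK3C2A, PIK3C2B, IRX3, IRX5, CERS2 and CERS5 lie higher in knockouts, while TMEM30A, NIPAL1, NIPAL2, CMTM4 and CMTM6 lie lower.

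Lists of genes grouped by function or tissue, chosen with earlier results of these data known, show what else differed between the same libraries. Over 12 lists, 240 genes outside the 28 were tested, of which 167 were lower, 63 higher and 10 not called (95.8% called, beside 80.6% of all genes tested). Of the 240, 92 were under 1 FPKM in every knockout library, passed the filter through WT and could only be lower. Another 33 were under 1 FPKM in both WT libraries and passed it through knockouts, which favoured a call of higher. Of the 106 with means of 1 FPKM or more in both knockouts and WT, 67 were lower, 30 higher and 9 not called. ESRP1 was the one member on a list, that of epithelial regulators. Beside it, 10 of 12 tested epithelial regulators were lower and 2 higher, and 5 of the 12 were under 1 FPKM in every knockout library. The 2 higher ones were under 1 FPKM in both WT libraries. Of the 4 with means of 1 FPKM or more in both groups, 4 were lower and 0 higher. EHF was at 1.07, 0.822, 0.558 and 0.565 FPKM in knockouts, against 39.6 and 40.9 FPKM in WT (-4.57 ± 0.06, limma adjusted p = 3.72e-07). GRHL2, which holds epithelial genes active, had 10 knockout reads and was at 15.4 and 14.9 FPKM in WT (-3.98 ± 0.06). TFAP2C was higher, at 7.80, 8.13, 8.39 and 8.80 FPKM in knockouts and with 0 reads in WT (3.21 ± 0.05, limma adjusted p = 4.01e-07). GRHL2 passed the filter only through WT and could only be lower. TFAP2C passed it only through knockout libraries, which favoured a call of higher in advance.

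Among 36 tested genes of polarity, junctions and apical trafficking, 34 were lower and 2 higher (CLDN1 and DSG2). Here 15 of the 36 were under 1 FPKM in every knockout library and 1, CLDN1, in both WT libraries. Of the 20 with means of 1 FPKM or more in both groups, 19 were lower and 1 higher. MAL2, RAB25 and CDH1, the last being E-cadherin, were among the lower ones, with CDH1 at 0.153, 0.157, 0.421 and 0.567 FPKM in knockouts, against 58.5 and 60.6 FPKM in WT. Of 16 gut transcription factors, 10 were lower, 5 higher and 1 not called. Of 24 transporters and channels, 14 were lower, 8 higher and 2 not called. Under 1 FPKM in every knockout library were 5 of the 16 and 9 of the 24. Under 1 FPKM in both WT libraries were 2 of the 16 and 5 of the 24. With means of 1 FPKM or more in both groups, 4 gut factors were lower, 3 higher and 1 not called. For transporters and channels with such means, 5 were lower, 3 higher and 1 not called. KCNQ1, a potassium channel pore gene, was higher in knockouts, at 14.8, 15.7, 16.7 and 15.6 FPKM, against 0.271 and 0.294 FPKM in WT (3.70 ± 0.05, limma adjusted p = 2.93e-07). It passed the filter only through knockout libraries, which favoured a call of higher in advance. Of 18 surface proteases and inhibitors, 10 were lower and 8 higher. Of them, 7 were under 1 FPKM in every knockout library and 3 in both WT libraries. Those with means of 1 FPKM or more in both groups gave 3 lower and 5 higher. Of 17 brush border and secretory genes, 6 were lower and 11 higher. Here 5 were under 1 FPKM in every knockout library and 7 in both WT libraries. Brush border genes with such means gave 1 lower and 4 higher. Of 11 ERBB genes, 6 were lower, 2 higher and 3 not called, and 2 were under 1 FPKM in every knockout library. Of 24 Wnt and stem cell genes, 18 were lower and 6 higher. Of the 24, 10 were under 1 FPKM in every knockout library and 2 in both WT libraries. Among the 11 with means of 1 FPKM or more in both groups, 7 were lower and 4 higher. Innate immune and interferon genes gave 33 lower, 2 higher and 3 not called of 38. Of the 38, 16 were under 1 FPKM in every knockout library and 2 in both WT libraries. Among the 16 immune genes with means of 1 FPKM or more in both groups, 13 were lower and 3 not called. Xenobiotic and lipid enzymes gave 13 lower, 12 higher and 1 not called of 26. Here 7 were under 1 FPKM in every knockout library and 6 in both WT libraries. The 12 enzymes with means of 1 FPKM or more in both groups gave 5 lower, 6 higher and 1 not called. Squamous genes gave 14 lower and 1 higher of 15. The lower ones include DSG3, IVL, A2ML1 and SPRR1A, which met both limits of the selection, so that their direction was fixed. Without these 4, 10 squamous genes were lower and 1 higher, and over all lists 163 were lower and 63 higher of 236. Of the 15 squamous genes, 10 were under 1 FPKM in every knockout library and could only be lower. The 5 squamous genes with means of 1 FPKM or more in both groups gave 4 lower and 1 higher. Germline genes gave 1 lower and 4 higher of 5, of which 1 was under 1 FPKM in every knockout library and 3 in both WT libraries.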

How the data were processed

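The authors deposited 1 table of FPKM values per library. HISAT2 2.0.5, featureCounts 1.5.0-p3 and the build hg38 are named, per the submitters' processing notes. The annotation, the strand setting and the treatment of multiply matching reads are not stated in the sources. GENCODE release 29 held all 58735 IDs. Multiplied by exon length, 100% of the deposited FPKM values of a library were whole multiples of a single step, within 0.1 of that step, which gave the reads. The FPKM denominator was 0.936 to 1.05 times the recovered total, a scale factor that no source used here describes, and 1 read per kilobase equals 0.0429 to 0.0544 FPKM.

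The deposited FPKM values were put on the scale log2(FPKM + 1) and modelled in limma 3.58.1 (R 4.3.3) by group means with a mean-variance trend (KO1 and KO2 averaged, minus WT; genes with 1 FPKM or more in 2 or more libraries). The planned count test was not used because the files hold no counts. Calls are Benjamini-Hochberg adjusted p under 0.05 over 16046 genes, and log2 differences, which understate low genes, carry SEs. A fold against 0 reads used 3 reads per library. Such limits cover counting error only: without molecular identifiers, reads are no independent molecules. Replicates differed beyond counting error (chi-square per degree of freedom over genes with 20 or more reads was 1.80 in KO1, 2.40 in KO2 and 2.46 in WT).

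The 28 genes and the lists were chosen with earlier results of these data known. All 28 are named. Genes named in the accounts of the lists are among the 3 of smallest adjusted p on their list, except DSG2, CLDN1 and SPRR1A. Listed genes named elsewhere stand there as family partners, markers or genes next to the limits. Neighbours were named after their values were seen, and the family partners and their alternatives were added after seeing the data. Alternatives changed the pseudocount, low-value filter, scaling, tool, design and libraries.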

Additional observations from a re-analysis of the deposited data

How the results depend on the processing

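The number of silent genes depends on both limits. It was 101 with a WT minimum of 1 FPKM, 13 with 10 FPKM, 73 with up to 3 reads in the knockout libraries together, and 122 with up to 0.1 FPKM in each. Leaving out 1 library at a time gave 28 to 39 genes, the most without KO1 replicate 1, and all of these sets held the 28. With a filter of 5 FPKM, 3900 genes were higher over all genes, neighbours gave 5 higher and 12 lower, 14 family partners were lower and 38 listed genes were higher. With no filter, 41 family partners were lower. Leaving out 1 library gave 5977 to 6229 higher and 4730 to 6391 lower over all genes. It gave 9 higher and 12 to 25 lower for neighbours, 20 to 22 higher and 11 to 23 lower for family partners, and 57 to 62 higher and 73 to 168 lower for listed genes. The low ends of the lower counts come from leaving out a WT replicate, since genes silent in knockouts then fall out of the filter. A lone library left in a group was assumed to vary like the other groups.

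Replicate numbers did not pair the libraries (correlations of deviations 0.0191, -0.00406 and -0.0383). With the replicate number as a block, 6470 genes were higher and 6387 lower, and neighbours gave 9 and 25. On recovered reads, limma voom called 6563 higher and 6573 lower. Library size as the only scaling moved the median of all genes to a log2 difference of 0.14, and under it 7374 were higher and 5669 lower. NOSTRIN, beside CERS6, was not called with KO1 and KO2 as 1 group of 4. The calls of SEL1L, ENPP1 and CCL20 were each lost without either WT replicate. That of ENPP1 was also lost under quantile scaling and with KO1 and KO2 as 1 group of 4. CCL20, with a limma adjusted p of 0.0495 in the main fit, lost its call under 9 settings and turned direction under limma voom. XPNPEP1 was called by limma voom and without WT replicate 1, and ABCC3 turned direction under library size and quantile scaling. Promoter windows from another annotation were not run, since no genome was used here.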

Other observations

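Genes just short of silence, with 1 to 3 reads in the 4 knockout libraries together, numbered 45 without genes of the families and names that the selection set aside (here KRT, KLK, SPRR, HOX and COL among them), and the genes named here were chosen after their values were seen. They included secreted factors of the BMP family. BMP4 had 3 knockout reads and stood at 228 and 235 FPKM in WT, and BMP7 had 2 and stood at 8.86 and 9.66 FPKM. The fatty acid carrier FABP5 had 2 knockout reads, against 87.2 and 81.6 FPKM in WT. SYK, a kinase of immune receptors, had 1, against 28.95 and 28.7 FPKM in WT. FOXJ1, the regulator of motile cilia, and GATA4, a factor of the gastric and cardiac lineages, had 1 each, against 11.7 and 11.5 FPKM (FOXJ1) and 7.05 and 6.62 FPKM (GATA4) in WT. These values are descriptions, with no test.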
